A study of Mus musculus with 79 samples.

Results

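The 10 genes described here encode adhesion molecules of glia and axons: Cadm1, Cadm2, Cadm3, Cadm4, L1cam, Nrcam, Nfasc, Chl1, Ncam1 and Cdh2. They were chosen by symbol, and each was present in the count tables, which list 23361 genes. RNA was sequenced from a mouse model of nerve repair in which the freshly cut common peroneal nerve was joined to the distal tibial stump through a silicone conduit. The graft was made immediately or after 8 weeks in which the tibial stump stayed without axons, and the immediate group had a sham incision 8 weeks before its repair. All groups were S100β-eGFP mice, which carry a GFP transgene under the human S100β promoter, and the labels give no age.

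The distal stump was taken at day 5 only, from 9 animals with delayed and 7 with immediate repair. The cell type label of these samples is distal stump, whereas their tissue label names the bridge, and the former was followed. Macrophages (MAC) and Schwann cells (SC), 1000 cells each, were sorted at days 5 and 14 from the regenerative bridge in the conduit of single, unpooled animals. MAC were sorted as positive for CD16/32, CD11b, F4/80 and CD14, and SC as GFP positive and negative for those markers and for Thy1.2, CD31 and leukocyte markers. At day 5 there were 9 delayed and 8 immediate MAC libraries, and 9 delayed and 7 immediate SC libraries. At day 14 there were 7 delayed and 8 immediate libraries of each cell type. Males and females were in every group, with 4 males in each. Together these are 79 libraries of 32 animals, with totals of 3898778 to 9212709 counts in the stump, 14928745 to 28499407 in MAC and 11614940 to 30796823 in SC.

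Levels are given as CPM, counts per 1000000 of the library's total. The libraries labelled SC did not carry the markers of Schwann cells alone. The summed level of 10 dendritic cell markers was 23125 to 47769 CPM in them, against 4.34 to 1310 CPM for 9 Schwann cell markers. Sox10, the transcription factor that defines Schwann cells, ran from 0 to 199 CPM there, and Ccr7, the homing receptor of mature dendritic cells, from 2413 to 9817 CPM. They are therefore called libraries labelled SC throughout, and a member's level in them is a level in that mixture. In MAC libraries Cd14 was 4465 to 10664 CPM and Sox10 at most 1.75 CPM. The 10 dendritic cell markers were present there too, with a sum of 1108 to 5211 CPM at day 5 and 7733 to 19953 CPM at day 14. In any of these samples, fewer cells of a type and less RNA per cell cannot be told apart.

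Adhesion molecules of the immunoglobulin and cadherin superfamilies hold Schwann cells to axons and to each other. The Cadm (nectin-like) proteins bind in pairs along the myelinated internode, where Cadm3 is mainly axonal and Cadm4 mainly glial, and Cadm1 and Cadm2 bind members of the same family. L1cam, Nrcam, Nfasc and Chl1 form the L1 family, whose cytoplasmic tails bind ankyrins. L1cam is found on growing axons and on Schwann cells that do not form myelin. Nrcam and Nfasc assemble the node of Ranvier, with a glial form of Nfasc at the paranode, and Chl1 acts in neurite growth. Ncam1 is displayed by immature and repair Schwann cells and by denervated muscle, and Cdh2 (N-cadherin) joins Schwann cells to each other and to axons through catenins.

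In GRCm38 with GENCODE annotation, the Cadm genes lie at chr9:47530173-47857637 (Cadm1, plus strand), chr16:66655421-67620908 (Cadm2, minus), chr1:173333258-173367695 (Cadm3, minus) and chr7:24482023-24504539 (Cadm4, plus). The L1 family genes lie at chrX:73853778-73896105 (L1cam, minus), chr12:44328885-44601964 (Nrcam, plus), chr1:132564690-132741797 (Nfasc, minus) and chr6:103510586-103750211 (Chl1, plus). Ncam1 is at chr9:49502136-49798925 on the minus strand. The values below are sums over a gene, so glial and axonal splice forms of Nfasc, or the isoforms of Ncam1, are not separated.

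Most members moved together in the stump, so their promoters were searched for 5 short motifs on both strands: ACAAAG and ACAATG for SOX factors, TGANTCA for AP-1, GGAATG for TEAD and GCGNGGGCG for EGR factors. None of these motifs is contained in another. RefSeq promoters (GRCm38.p6), which hold 250 bases before and 50 after a start, were searched for 7 members, with 9 promoters in all. No promoter of Cadm1, Ncam1 or Cdh2 was searched. The stretch before the start is shown for Nrcam, which had the largest change in the stump, for Cadm4 and Cadm3, the glial and axonal partners of the internode, and for Cadm2, which had the smallest change. They lie at chr12:44328635-44328884 (plus strand), chr7:24481773-24482022 (plus), chr1:173367696-173367945 (minus) and chr16:67620909-67621158 (minus). Each is written 5′ to 3′ on the strand of its gene, with motif matches in capitals.
Nrcam: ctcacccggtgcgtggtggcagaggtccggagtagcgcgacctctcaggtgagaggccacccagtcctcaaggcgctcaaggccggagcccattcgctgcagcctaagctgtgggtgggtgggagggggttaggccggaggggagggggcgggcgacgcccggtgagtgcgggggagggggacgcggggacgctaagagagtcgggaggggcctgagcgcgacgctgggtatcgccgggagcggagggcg
Cadm4: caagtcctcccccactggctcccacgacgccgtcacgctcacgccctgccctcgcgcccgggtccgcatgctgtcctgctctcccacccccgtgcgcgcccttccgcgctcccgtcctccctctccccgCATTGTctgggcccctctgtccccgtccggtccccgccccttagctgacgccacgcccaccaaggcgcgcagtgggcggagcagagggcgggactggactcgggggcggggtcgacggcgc
Cadm3: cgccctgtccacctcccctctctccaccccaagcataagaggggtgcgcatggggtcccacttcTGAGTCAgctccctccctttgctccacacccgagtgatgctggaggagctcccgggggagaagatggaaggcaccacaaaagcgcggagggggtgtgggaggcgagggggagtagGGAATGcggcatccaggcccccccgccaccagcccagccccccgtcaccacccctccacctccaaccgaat
Cadm2: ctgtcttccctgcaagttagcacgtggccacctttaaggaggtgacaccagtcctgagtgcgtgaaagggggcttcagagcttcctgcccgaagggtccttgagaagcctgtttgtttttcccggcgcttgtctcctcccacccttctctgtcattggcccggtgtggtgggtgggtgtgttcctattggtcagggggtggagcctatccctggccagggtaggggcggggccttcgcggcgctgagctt

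Cadm4 held 1 match to ACAATG, on the opposite strand, beginning 121 bases before the start. Cadm3 held an AP-1 match 186 bases and a TEAD match 71 bases before its start. Nrcam and Cadm2 held none of the 5 motifs, and neither did L1cam. Chl1 held 1 match to ACAAAG and Nfasc 1 to GGAATG. Among 32851 promoters of this length, 18.7% held ACAAAG, 12.6% ACAATG, 7.81% TGANTCA, 14.7% GGAATG and 5.55% GCGNGGGCG. GGAATG was thus found in 2 of the 7 members, and each other motif in at most 1. Matches of such short letters are a description, not sites.

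The distal stump at day 5 addressed how a stump denervated for 8 weeks before its repair differs from one cut at its repair, 5 days earlier. After delayed repair, 8 of the 10 members were lower, and none was higher. Across all 12229 genes tested, 26.3% were called in either direction with 12.8% called higher and 13.5% called lower (edgeR quasi-likelihood test, adjusted p under 0.05). The median log2 fold change was -0.97 over the members and 0.02 over all genes. Each member was above the filter in both groups or, for Cadm2, in most libraries of both.

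**Figure D1:**
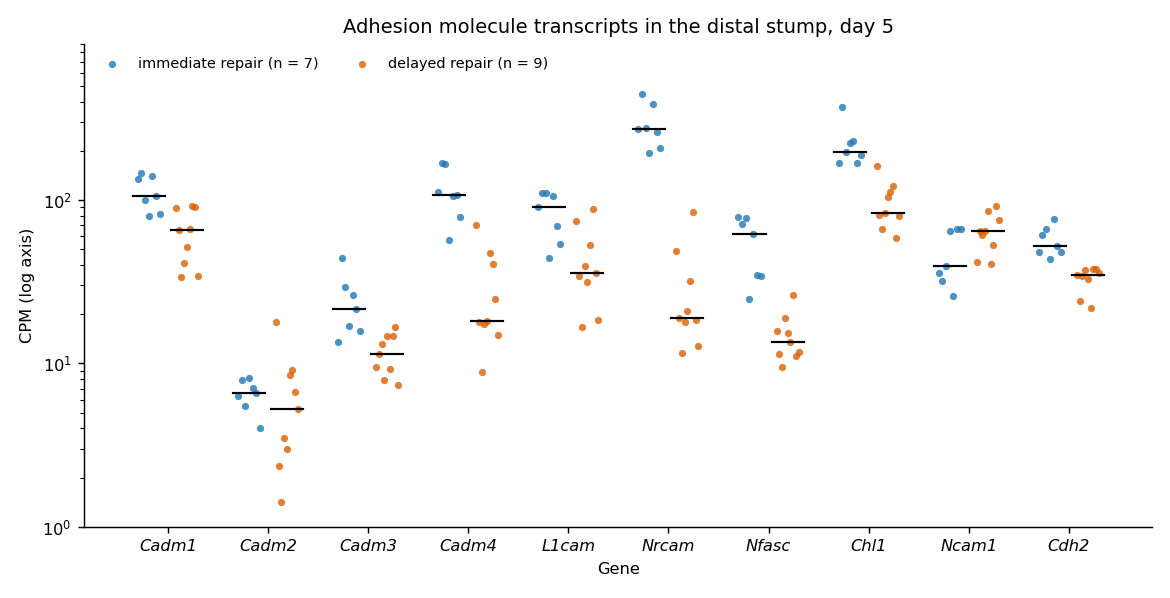
CPM of the 10 members in each distal stump library at day 5, on a log axis, with 7 immediate (blue) and 9 delayed (orange) libraries and a black line at the median. Nrcam, Chl1 and Cdh2 show no overlap of the groups, and Ncam1 is the gene whose delayed median, 64.5 CPM, lies above the immediate one, 39.4 CPM.

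Nrcam, the nodal cell adhesion molecule of the L1 family, showed the largest difference. It was 11.5 to 84.1 CPM (median 18.97) in 9 delayed libraries and 194 to 446 CPM (median 269.8) in 7 immediate libraries, so the groups did not overlap. The log2 fold change was -3.30 (SE 0.37, adjusted p = 9.13e-06), or 9.83-fold lower. Nfasc, its partner at the node and paranode, was 9.51 to 26.3 CPM (median 13.6) against 24.7 to 78.9 CPM (median 62.0). The Nfasc groups overlapped only between 1 delayed and 1 immediate library, and the fit gave -1.85 (SE 0.25, adjusted p = 5.89e-05), or 3.61-fold lower. Chl1, the close homologue of L1, was 58.6 to 162 CPM (median 83.2) against 167 to 371 CPM (median 196). Its groups did not overlap, and it was 2.26-fold lower (log2 fold change -1.17, SE 0.20, adjusted p = 4.47e-04).

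L1cam was 16.8 to 87.6 CPM (median 35.6) after delay and 44.2 to 110 CPM (median 90.7) after immediate repair, and its groups overlapped. It was 1.90-fold lower (log2 fold change -0.92, SE 0.30, adjusted p = 0.0317). This call was the least firm of the 8. It was lost when any of 7 of the 16 libraries was left out, namely delayed replicates 2, 4, 5 and 8 and immediate replicates 2, 3 and 6, with adjusted p from 0.0524 to 0.0727. The replicate number as a block also ended it (adjusted p = 0.0966).

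Among the Cadm genes, Cadm4, the glial partner along the internode, fell furthest. Cadm4 was 8.91 to 70.4 CPM (median 18.2) after delay and 56.6 to 168 CPM (median 107) after immediate repair. The groups overlapped through delayed replicate 1 at 70.4 CPM and immediate replicate 4 at 56.6 CPM. The log2 fold change was -1.96 (SE 0.35, adjusted p = 7.07e-04), or 3.88-fold lower. Cadm3, its axonal partner, was 7.34 to 16.7 CPM (median 11.3) against 13.6 to 44.1 CPM (median 21.4). With overlap of the groups, Cadm3 was 2.01-fold lower (-1.01, SE 0.24, adjusted p = 0.00514). Cadm1 was 33.8 to 91.6 CPM (median 65.9) against 79.4 to 146 CPM (median 105), 1.76-fold lower (-0.82, SE 0.22, adjusted p = 0.0122). All 9 delayed libraries were below the immediate mean for Cadm1, Cadm3 and Cadm4, although the ranges overlapped. Cadm2 was 1.42 to 17.9 CPM (median 5.23) against 4.01 to 8.09 CPM (median 6.62), a log2 fold change of -0.03 with a 95% interval from -0.83 to 0.77. The delayed libraries spread more widely than the immediate ones for Cadm2, and that interval does not show equal levels.

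Cdh2, or N-cadherin, is encoded at chr18:16588877-16809246 on the minus strand. It was 21.8 to 37.9 CPM (median 34.7) after delay and 43.6 to 76.4 CPM (median 52.4) after immediate repair. The groups did not overlap, although the difference was modest, 1.69-fold lower (-0.75, SE 0.14, adjusted p = 7.72e-04). Ncam1, the neural cell adhesion molecule, went the other way without passing the test. It was 40.5 to 92.0 CPM (median 64.5) after delay and 25.7 to 66.6 CPM (median 39.4) after immediate repair, with 7 of 9 delayed libraries above the immediate mean. The log2 fold change of Ncam1 was 0.47 (SE 0.23, adjusted p = 0.139), with a 95% interval from -0.01 to 0.95.

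**Figure D2:**
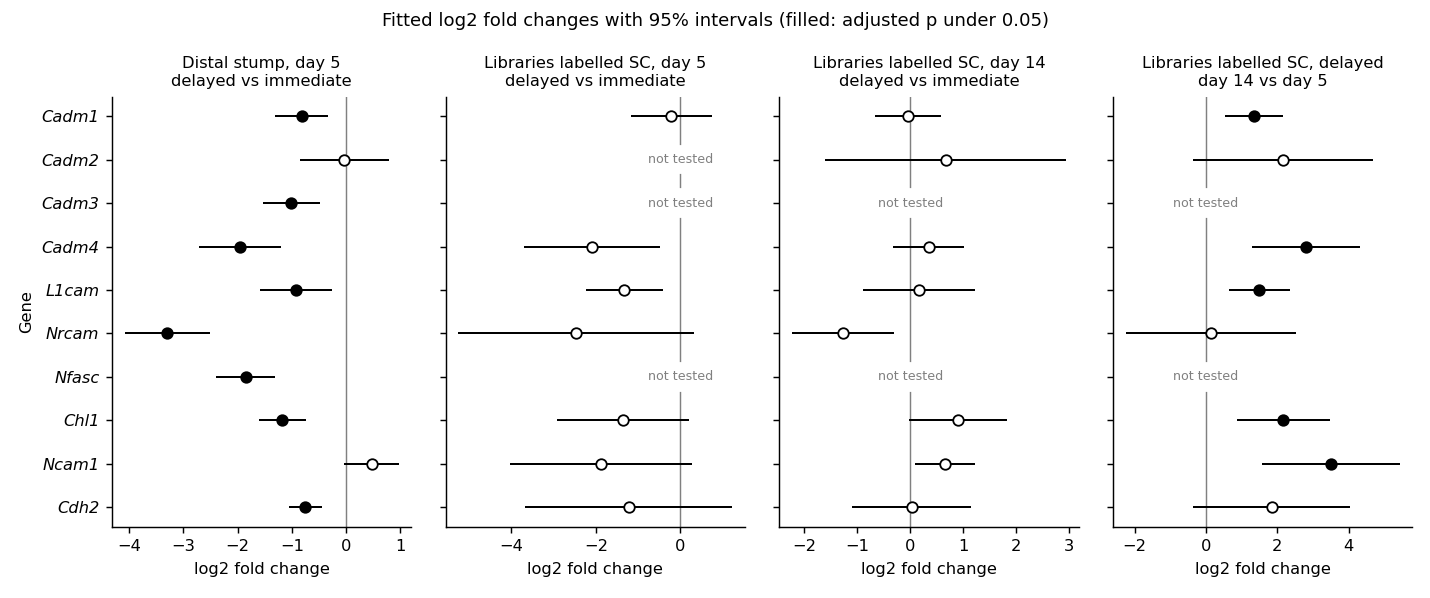
Fitted log2 fold change of each member (points) with its 95% interval (lines) in 4 comparisons; filled points passed an adjusted p under 0.05, and members below the filter are written as not tested. In the stump 8 members lie left of 0 with filled points, in the libraries labelled SC none passes between repair groups, and after delay 5 members have filled points right of 0 between day 5 and day 14, Cadm4 and Ncam1 among them only as a description.

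Markers of several cell types moved with the repair group in the stump. The 9 Schwann cell markers summed to 81.8 to 614 CPM (median 226) after delay and 906 to 2259 CPM (median 1758) after immediate repair, without overlap. Of the 8 of these markers tested, 7 were lower, with Sox10 at -2.03 (SE 0.35, adjusted p = 5.24e-04) and S100b at -4.86, and the list's median was -2.35. The 8 neuronal markers summed to 16.3 to 108 CPM after delay and 82.6 to 241 CPM after immediate repair, and a stump holds no neuronal cell bodies. Of 3 neuronal markers tested, Uchl1 was lower (-3.32), Stmn2 higher (1.17) and Tubb3 not called (-1.14). Endothelial markers summed to 946 to 1398 CPM against 611 to 851 CPM, with 6 of 7 called higher. Mural cell markers summed to 973 to 1232 CPM against 636 to 861 CPM, with 5 of 7 higher and 1 lower, and dendritic cell markers to 896 to 1668 CPM against 533 to 1369 CPM, with 3 of 9 higher. Perineurial markers summed to 134 to 494 CPM against 238 to 828 CPM, with 1 of 3 called lower. Macrophage markers summed to 2947 to 4864 CPM against 1368 to 4698 CPM, with 2 of 9 higher. Skeletal muscle markers were high in delayed replicates 5 and 9, at 2410 and 219 CPM, and at most 43.9 CPM elsewhere. Without those 2 libraries 7 members stayed called lower, and L1cam did not (adjusted p = 0.069). The part of each of these cell types in the members' differences was not tested.

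Members followed the Schwann cell markers to different degrees. The delayed library with the highest Schwann marker sum, replicate 7 at 614 CPM, also had the highest Nrcam (84.1 CPM), L1cam (87.6 CPM) and Nfasc (26.3 CPM) of its group. The highest Cadm4 (70.4 CPM) and Chl1 (162 CPM) were instead in replicate 1, whose sum was 376 CPM. The delayed library with the lowest sum, replicate 3 at 81.8 CPM, had the lowest Nrcam (11.5 CPM), Cadm4 (8.91 CPM), L1cam (16.8 CPM) and Nfasc (9.51 CPM). The fold of Nrcam (-3.30) lay beyond that of Sox10 (-2.03) and short of that of S100b (-4.86), while Cadm1, Cdh2 and L1cam changed by less than 1 on the log2 scale. Whether a member's fold differed from that of a marker was not tested.

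**Figure D3:**
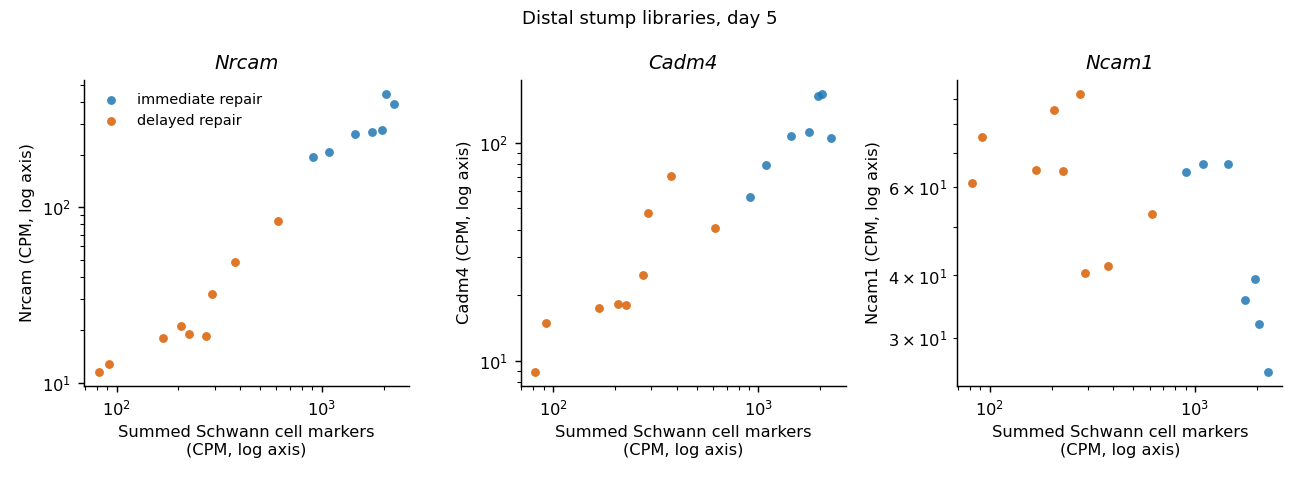
CPM of Nrcam, Cadm4 and Ncam1 (vertical, log axis) against the summed CPM of 9 Schwann cell markers (horizontal, log axis) in the 16 stump libraries, blue for immediate and orange for delayed repair. Nrcam and Cadm4 are high where the marker sum is high, and the lowest Ncam1, 25.7 CPM, is in the library with the highest sum, 2259 CPM.

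Genes whose log2(CPM + 1) followed a member most closely over the 16 stump libraries were listed by Pearson's r. These libraries fall into 2 repair groups that differ in many genes, so each r is a description. Nrcam was closest to Met (r = 0.992), Syt4 (0.991) and Itgb8 (0.989). Cadm4 was closest to Fmn2 (0.972), Sorcs1 (0.970) and Ptch1 (0.969), and Sorcs1 was also among the closest to L1cam (0.962), after Asxl3 (0.982). Nfasc was closest to Tspan17 (0.981), Kif3c (0.975) and Rtkn (0.974). Cadm1 was closest to Gldn (0.969), the secreted gliomedin that Schwann cells place at the node. The gene closest to Ncam1 was Col8a2 (0.943), a collagen, followed by Lsp1 (0.926). Cadm3 was closest to Trim2 (0.915), Chl1 to 4833439L19Rik (0.948), Cdh2 to Hyls1 (0.932) and Cadm2 to Kng2 (0.888).

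Genes that act with the members, as binding partners, channels of the node or other adhesion genes, were called in both directions in the stump, where 26.3% of all genes were called. Of 7 tested genes of the node and its channels (12 listed), 3 were lower and 1 higher. The potassium channel gene Kcna1 fell to 81.2 from 318 mean CPM (log2 fold change -1.95, SE 0.33), Gldn to 45.4 from 137 (-1.58, SE 0.34) and Kcna2 to 27.9 from 49.3 (-0.81, SE 0.26). The sodium channel gene Scn7a rose (0.97, SE 0.22, adjusted p = 0.00422). Of 15 tested adaptors (18 listed) that tie the L1 and Cadm tails to the cytoskeleton, 5 were lower and 1 higher. Ank3, the ankyrin G of nodes, fell by 1.51 (SE 0.29), whereas Epb4.1l3, Ank2, Dlg1 and Sptbn1 fell by 0.33 to 0.53 on the log2 scale. Epb4.1, protein 4.1R of red blood cells, rose by 1.22 (SE 0.38).

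Of 8 tested cadherins and catenins (11 listed), 3 were lower and 3 higher. Cdh19, the Schwann lineage cadherin, fell from 624.9 to 96.9 mean CPM (log2 fold change -2.68, SE 0.36, adjusted p = 5.32e-05). Ctnna1 and Jup fell by 0.43 and 0.55, and Cdh13, Cdh11 and Ctnnd2 rose by 0.91, 0.62 and 0.47. Among 6 tested partners of Ncam1 (7 listed), Gfra1, a GDNF co-receptor, fell from 404 to 38.0 mean CPM (-3.39, SE 0.36, adjusted p = 7.19e-06). St8sia4, which adds polysialic acid to Ncam1, rose (0.80, SE 0.16, adjusted p = 0.00132). In the remaining immunoglobulin adhesion genes, 5 tested of 9 listed, 1 was lower and 1 higher, and the higher one, Alcam, rose by 0.39 (SE 0.12, adjusted p = 0.0236). The calls were 4 of 7, 6 of 15, 6 of 8, 2 of 6 and 2 of 5 genes tested, small lists from which nothing is read against that share. The median log2 fold changes of the 5 lists were -0.10, -0.13, -0.08, -0.21 and 0.11 in this order, against 0.02 over all genes.

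In the libraries labelled SC at day 5, none of the 7 members that passed the filter was called between repair groups, and none of 9604 genes was (edgeR, adjusted p under 0.05, so 0% called). Before adjustment 505 genes, among them Cadm4 and L1cam, had a p under 0.05, and DESeq2 called 14 genes but no member. Cadm4 was 0 to 23.7 CPM (median 4.61) after delay and 10.5 to 88.8 CPM (median 24.6) after immediate repair. All 9 delayed libraries were below the immediate mean of Cadm4, and the log2 fold change was -2.09 (SE 0.75, unadjusted p = 0.0127, adjusted p = 0.818). L1cam was 11.9 to 72.4 CPM (median 22.2) against 16.8 to 121 CPM (median 60.8), a log2 fold change of -1.33 (SE 0.42, unadjusted p = 0.00566, adjusted p = 0.807). The groups overlapped for both genes. Cadm4, Ncam1, Nrcam and Cdh2 reached 5 CPM in 4, 4, 4 and 3 of the 9 delayed libraries, so they met the filter only with the immediate libraries, where they were higher, and their signs are no support for a direction.

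The other members tested at day 5 had wide intervals. Nrcam was 0 to 56.2 CPM (median 4.73) after delay and 0.14 to 171 CPM (median 53.2) after immediate repair (-2.47, SE 1.31). Ncam1 was 0 to 28.8 CPM (median 4.13) against 1.58 to 67.0 CPM (median 21.0), and Chl1 was 0.106 to 17.6 CPM (median 7.06) against 1.75 to 54.1 CPM (median 8.95). Their log2 fold changes were -1.87 (SE 1.01) and -1.36 (SE 0.73). Cdh2 gave -1.22 (SE 1.15) and Cadm1 -0.21 (SE 0.44), with Cadm1 at 14.9 to 141 CPM (median 51.2) and 11.4 to 135 CPM (median 70.5). Nfasc, Cadm2 and Cadm3 stayed below the filter, with medians of 1.25, 0.541 and 0.622 CPM after delay and 7.35, 2.81 and 0.952 CPM after immediate repair. None of 8 Schwann cell markers and none of 9 macrophage markers tested was called here. The Schwann cell markers summed to 4.34 to 321 CPM (median 71.9) after delay and 60.4 to 773 CPM (median 392) after immediate repair, and the macrophage markers to 354 to 10640 CPM against 227 to 3700 CPM, with overlap in both. Their part in these values was not tested.

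**Figure D4:**
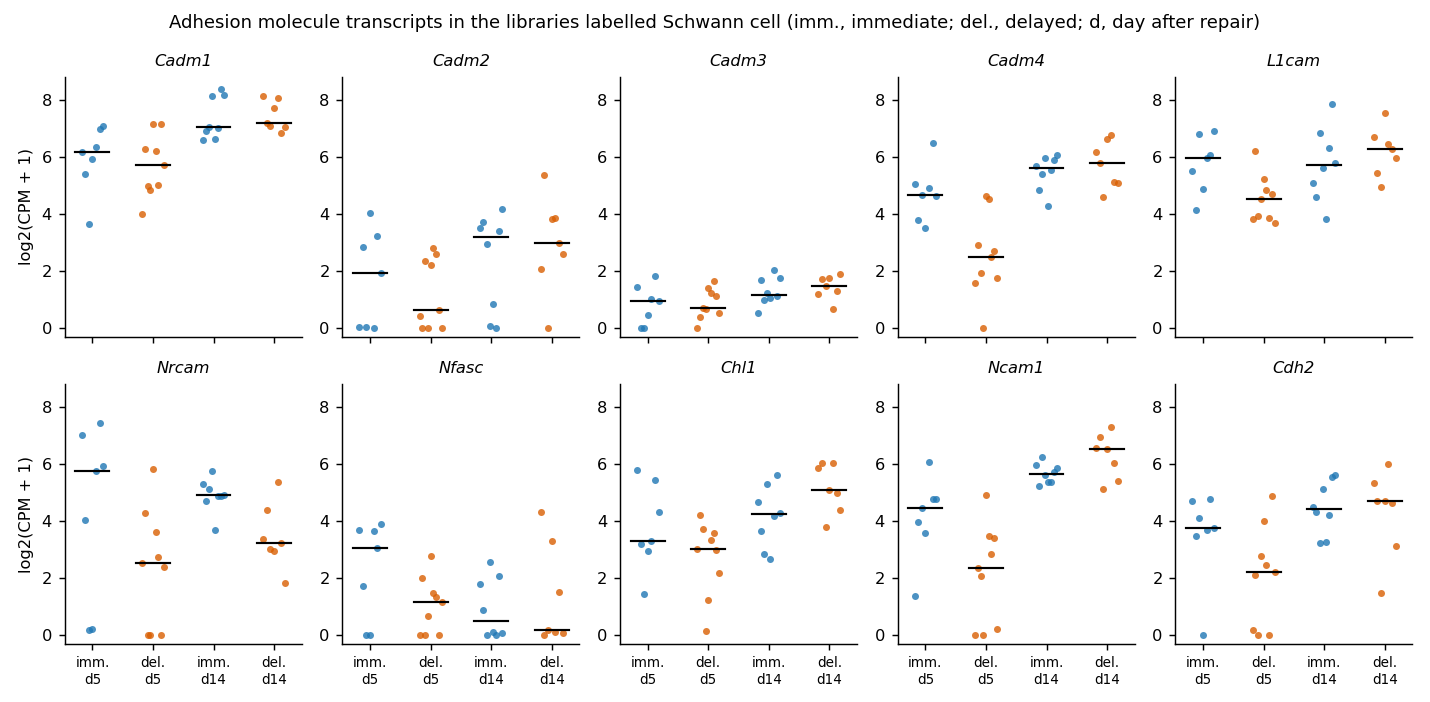
log2(CPM + 1) of each member in the libraries labelled SC, with immediate (blue) and delayed (orange) repair at days 5 and 14 and a black line at the median; points are libraries (7, 9, 8 and 7 from left to right). After delay Ncam1 separates by day, with a highest day 5 level of 28.8 CPM and a lowest day 14 level of 34.1 CPM, and the groups of the other members overlap.

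At day 14 no member, and no gene of 10226, was called between the repair groups (0%; 373 genes, 2 of them members, at an unadjusted p under 0.05, and 3 genes by DESeq2). Nrcam was 2.54 to 40.0 CPM (median 8.31) after delay and 12.0 to 53.7 CPM (median 28.9) after immediate repair, with 6 of 7 delayed libraries below the immediate mean. Its log2 fold change was -1.27 (SE 0.44, unadjusted p = 0.0108, adjusted p = 0.998). Ncam1 was 34.1 to 156 CPM (median 90.7) against 36.6 to 76.0 CPM (median 49.6), a log2 fold change of 0.66 (SE 0.26, unadjusted p = 0.0214, adjusted p = 0.998). Neither passed the test, and their groups overlapped. Chl1 gave 0.90 (SE 0.43), Cadm4 0.34 (SE 0.31), L1cam 0.16 (SE 0.49), Cdh2 0.03 (SE 0.52) and Cadm1 -0.04 (SE 0.29). The Schwann cell marker sum was 146 to 1310 CPM after delay and 345 to 864 CPM after immediate repair.

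Between days 5 and 14 after delayed repair, Chl1, L1cam and Cadm1 rose in the libraries labelled SC. The comparison called 8.09% of 9961 genes, 3.34% as higher, and 5 of 8 members tested were higher. Cadm4 and Ncam1 reached 5 CPM in only 4 of the 9 day 5 libraries, so they met the filter only with the day 14 libraries, where they were higher. Their values are given as a description, and the count of 5 is no support for a direction. Ncam1 went from 0 to 28.8 CPM (median 4.13) to 34.1 to 156 CPM (median 90.7), without overlap (log2 fold change 3.51, SE 0.90). Cadm4 went from a median of 4.61 to 54.6 CPM (22.9 to 107 CPM at day 14; 2.82, SE 0.70). Chl1 went from a median of 7.06 to 33.4 CPM (12.8 to 65.4 CPM at day 14; 2.17, SE 0.60, adjusted p = 0.0373). L1cam went from a median of 22.2 to 76.8 CPM (30.1 to 187 CPM at day 14; 1.49, SE 0.39, adjusted p = 0.0306). Cadm1 went from a median of 51.2 to 144 CPM (113 to 281 CPM at day 14; 1.34, SE 0.37, adjusted p = 0.0365). For all 5 genes each of the 7 day 14 libraries was above the day 5 mean.

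These calls were close to the threshold. With no filter, Cadm1 (adjusted p = 0.0539) and Chl1 (adjusted p = 0.0542) were no longer called in the edgeR test. Without delayed day 14 replicate 6 no member was called, with adjusted p from 0.0559 for Cadm4 and L1cam to 0.0785 for Cadm1. Leaving out day 5 replicates 1, 3, 4, 7 or 9, or day 14 replicates 1, 2 or 4, left 2 or 3 members called. With the replicate number as a block none was called (adjusted p from 0.0619 to 0.124), although the numbers mark different animals here. Nrcam was not called, at 0.13 (SE 1.12, 95% interval -2.23 to 2.49), with medians of 4.73 and 8.31 CPM. It was 2.07 with limma-voom (adjusted p = 0.356) and 2.74 with the block (adjusted p = 0.271). Schwann cell markers rose over the same days, from a sum of 4.34 to 321 CPM to one of 146 to 1310 CPM, with 4 of 9 tested called higher. Fibroblast markers summed to 16.4 to 3241 CPM at day 5 and 1898 to 19964 CPM at day 14, with 1 of 6 tested called higher. Of the 10 dendritic cell markers 1 was called higher and 1 lower, namely Xcr1 (1.88, SE 0.51) and Flt3 (-0.87, SE 0.20), and the list's median was -0.30. The part of these cell types in the rise was not tested.

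After immediate repair the same days called 3.81% of 10016 genes, 0.719% as higher, and no member. Cadm1 was 11.4 to 135 CPM (median 70.5) at day 5 and 95.9 to 334 CPM (median 131) at day 14 (log2 fold change 1.16, SE 0.38, unadjusted p = 0.00672, adjusted p = 0.094). DESeq2 called it higher (adjusted p = 0.0237). Ncam1 had medians of 21.0 and 49.6 CPM (0.97, SE 0.46, adjusted p = 0.272), Cadm4 of 24.6 and 47.7 CPM (0.37, SE 0.37) and L1cam of 60.8 and 51.1 CPM (-0.03, SE 0.52). Nrcam had medians of 53.2 and 28.9 CPM (-1.06, SE 0.86). The difference between the repair groups in the change from day 5 to day 14 was tested as an interaction. None of 10923 genes passed (0%; 524 at an unadjusted p under 0.05, and 9 genes by DESeq2). Of the 9 members tested, 4 had an unadjusted p under 0.05: Cadm4 (2.44, SE 0.82, adjusted p = 0.767), Ncam1 (2.53, SE 1.03, adjusted p = 0.954), Chl1 (2.24, SE 0.87, adjusted p = 0.91) and L1cam (1.51, SE 0.67, adjusted p = 0.975). A larger rise after delay was thus not shown for any member.

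Over the 31 libraries labelled SC, Cadm4 was closest to Gpm6b (r = 0.936), Tspan15 (0.932) and Sema3b (0.930). Ncam1 was closest to Kitl (0.892), Chl1 to Kcna6 (0.866), Nrcam to Mapk8ip1 (0.860), Cdh2 to Trip6 (0.828) and L1cam to Coro2b (0.783). Cadm1 was closest to Fbl (0.921), a nucleolar protein gene, where in the stump it had been closest to Gldn. Nfasc and Cadm2, near 0 in many of these libraries, reached 0.682 with Patz1 and 0.712 with Tenc1. These libraries share amplification and differ in their mixture of cells, so the values describe likeness only.

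In MAC, Cadm1 was the abundant member, L1cam and Nrcam were low, and the remaining 7 were at or near 0. Cadm1 at day 5 was 61.9 to 175 CPM (median 118) after delay and 46.9 to 128 CPM (median 101) after immediate repair (log2 fold change 0.25, SE 0.22, adjusted p = 0.975). At day 14 Cadm1 was 98.0 to 238 CPM (median 185) against 16.8 to 226 CPM (median 93.2), with 6 of 7 delayed libraries above the immediate mean (0.88, SE 0.38, unadjusted p = 0.0327, adjusted p = 0.9999). The groups overlapped on both days. Between repair groups 0.0357% of 8409 genes were called at day 5 and 0% of 8589 at day 14 (190 at an unadjusted p under 0.05, and 0 by DESeq2), and neither Cadm1 nor Nrcam, the 2 members that met the filter, was among them. From day 5 to day 14 Cadm1 changed by 0.56 after delay (SE 0.23, adjusted p = 0.156) and by -0.07 after immediate repair (SE 0.36, adjusted p = 0.932), where 6.41% and 11.3% of genes were called. The interaction of repair and day for Cadm1 was 0.64 (SE 0.45, adjusted p = 0.9999), where 0.0223% of 8949 genes were called. Markers of cell types moved between the days in MAC too. Of 6 dendritic cell markers tested, 4 were called higher at day 14 in each repair group. After delay the 10 listed summed to 1862 to 5211 CPM at day 5 and 7733 to 19953 CPM at day 14. Of 9 macrophage markers tested, 1 was lower after delay, and 3 were lower and 1 higher after immediate repair. The part of these markers' cells in the Cadm1 values was not tested.

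L1cam in MAC was 0.46 to 8.14 CPM over the 32 libraries, and Nrcam ran from 0 to 16.3 CPM with 9 libraries at 0. Nrcam gave log2 fold changes of 0.47 (SE 0.93) at day 5 and -0.53 (SE 1.21) at day 14 between repair groups. Cadm3 and Nfasc had a count of 0 in every MAC library, which allows up to 0.201 CPM in the smallest of them. Ncam1, Chl1, Cdh2, Cadm4 and Cadm2 did not exceed 2.02, 1.1, 1.43, 0.536 and 0.0928 CPM. Whether levels this low are traces of other cells' RNA was not tested.

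MAC and SC of the same animals were compared in pairs. Many genes differ between such cells, with 64.5% of 10074 called at day 5 (32.7% as higher in the libraries labelled SC) and 63.3% of 10596 at day 14. At day 5 Cadm1 was lower in the libraries labelled SC than in MAC of the same animal (log2 fold change -1.07, SE 0.25, adjusted p = 0.00113, lower in 12 of 16 animals). At day 14 the difference was 0.18 (SE 0.24, adjusted p = 0.532), or 0.55 with scaling by library size alone, which passed (adjusted p = 0.0442). The change between the days was not tested. L1cam was 11.9 to 121 CPM in the libraries labelled SC and 1.22 to 6.73 CPM in MAC at day 5, and 13.1 to 229 CPM against 0.46 to 8.14 CPM at day 14. The ranges did not overlap, and the fitted differences were 3.04 (SE 0.27) and 3.98 (SE 0.25). Nrcam was higher by 1.63 at day 5, which did not pass (SE 1.45, adjusted p = 0.335), and by 3.67 at day 14 (SE 0.91, adjusted p = 0.00182). At day 5 Nrcam did pass with limma-voom (2.18, adjusted p = 0.00151) and without the pairing by animal (2.56, adjusted p = 0.0187). L1cam met the filter only with the libraries labelled SC, since it reached 5 CPM in 4 of 16 MAC libraries at day 5 and 3 of 15 at day 14, so its values are a description with no test. Fold changes of the other members are not given, since none exceeded 2.02 CPM in MAC and most were at 0 in some MAC libraries. At day 14, for example, every library labelled SC held at least 18.2 CPM of Cadm4 and 34.1 CPM of Ncam1, and no MAC library more than 0.536 and 2.02 CPM. As dendritic cell transcripts dominate the libraries labelled SC, these contrasts are not between Schwann cells and macrophages alone.

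**Figure D5:**
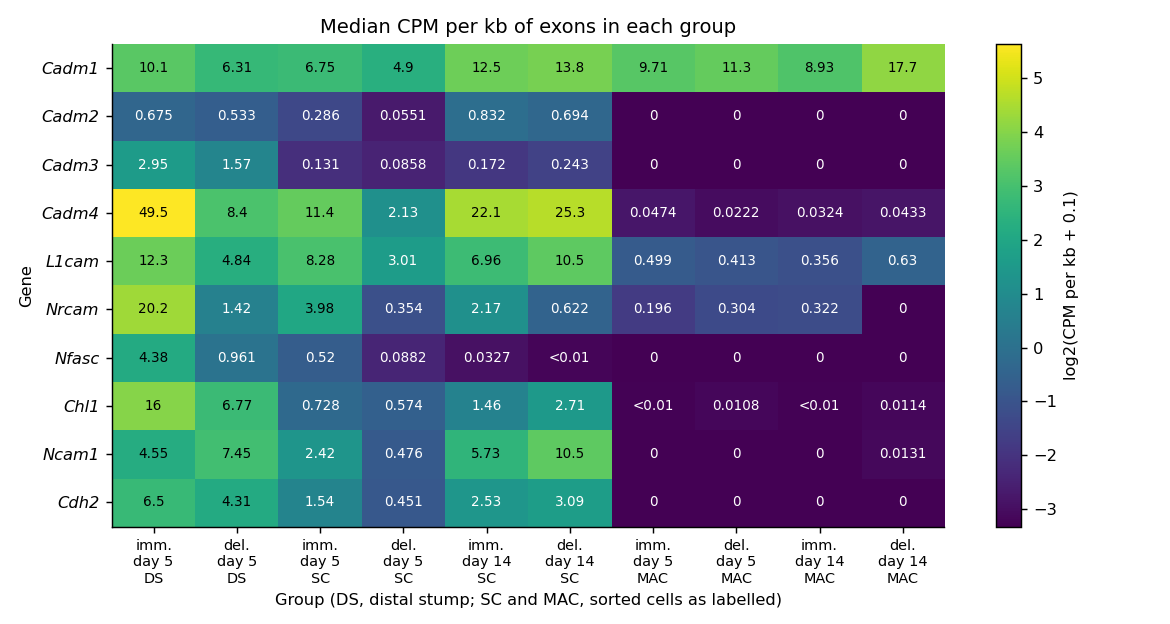
Median CPM per kb of exons of each member (rows) in the 10 groups (columns; imm., immediate; del., delayed), with the value printed and the colour on a log2(CPM per kb + 0.1) scale. Cadm4 is the highest member in the immediate stump at 49.5 and in the day 14 SC groups, and Cadm1 is the highest in every MAC group at 8.93 to 17.7.

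Divided by the length of their exons in GENCODE, levels can be set roughly side by side between genes. That length is the union of exons over all transcripts of a gene, 2161 bases for Cadm4 and 13358 for Nrcam. It can exceed the transcript expressed, so the order depends on the annotation. In the immediate stump Cadm4 was the highest member by this measure, with a median of 49.5 CPM per kb. Nrcam (20.2), Chl1 (15.96), L1cam (12.3) and Cadm1 (10.1) came next. Cdh2 (6.50), Ncam1 (4.55), Nfasc (4.38), Cadm3 (2.95) and Cadm2 (0.675) followed. The ranges of neighbours in this order overlapped except those of Cadm3 and Cadm2. After delay the order was Cadm4 (8.40), Ncam1 (7.45), Chl1 (6.77), Cadm1 (6.31), L1cam (4.84), Cdh2 (4.31), Cadm3 (1.57), Nrcam (1.42), Nfasc (0.961) and Cadm2 (0.533), where only the ranges of Cdh2 and Cadm3 were apart. Nrcam thus moved from the second to the eighth place and Ncam1 from the seventh to the second.

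In the libraries labelled SC, Cadm4 came first in 3 of the 4 groups, at 11.4 CPM per kb in the immediate group of day 5 and 22.1 and 25.3 in the immediate and delayed groups of day 14. Cadm1 led after delay at day 5 (4.90), before L1cam (3.01) and Cadm4 (2.13). At day 14 Ncam1 reached 5.73 after immediate and 10.5 after delayed repair. Nfasc and Cadm3 were among the lowest, at 0.520 and 0.131 in the immediate group of day 5, where Nrcam, which like Nfasc acts at the node, was at 3.98. Ranges of all neighbours in these 4 orders overlapped. Stump and sorted cell libraries were made by different methods, so their levels were set side by side but not tested against each other.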

How the data were processed

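RNA was extracted from the distal stump and from sorted MAC and SC. The authors deposited estimated counts per gene for each kind of sample, not normalized; 0.951% to 1.18% of the values are not whole, and these were rounded. The authors trimmed reads with cutadapt 1.8, removed rRNA reads of the stump with bowtie2 and aligned to mm10 with TopHat2 2.1.1 and UCSC genes. Cufflinks 2.2.1 and Cuffnorm are named for the later steps, and a first-strand setting for TopHat2 and, where appropriate, Cufflinks. Which program wrote the deposited counts is not given in the sources used here. Stump libraries were rRNA-depleted and directional, and sorted cell libraries came from amplified cDNA, in which low genes were at 0 in single libraries.

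The members and gene lists were chosen with earlier results of these data known. All 10 members are named, with up to 3 genes of each partner list with the smallest p in the stump, any partner whose call is counted among 5 or fewer, defining markers, and the genes most like a member. Xcr1, Flt3 and the neuronal markers were named after their values were seen. Tests used the quasi-likelihood F of edgeR 4.0.16 (R 4.3.3) after TMM scaling, on genes that reached 5 CPM in 6 or more libraries of a comparison, with Benjamini-Hochberg adjustment over all of these. The SE was derived from the log2 fold change and F. MAC and SC were paired by animal, from the animal numbers in the labels (deviations of the 2 libraries of an animal correlated at 0.007 to 0.272 at day 5 and 0.056 to 0.238 at day 14). Alternatives were DESeq2 1.42.0, limma-voom (limma 3.58.1), library size scaling, other filters, sex, the replicate block, all groups in 1 fit, each sex alone, each library left out and, chosen after seeing the data, the stump without libraries rich in muscle transcripts. Replicates within a group are separate animals, while stump, MAC and SC libraries can come from the same animal, and none of 3081 pairs of libraries was identical. Comparisons between days and between repair groups share libraries. The depth per library is the total given above, and floors from a count of 0 (3 counts) cover counting error only. Amino acid sequences were not used here, and some genes of the partner and marker lists are not reported here, whatever the naming rule.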

Additional observations from a re-analysis of the deposited data

Results flagged for a closer look

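In 8 of 89 combinations of a member and a group, 1 library stood apart from the others of its group on the log2(CPM + 1) scale. Chance alone gives about 1 in 20 only where values are roughly normal, so that rate is no measure for groups mostly at 0. In the immediate stump, Chl1 was 371 CPM in replicate 2, with the next highest at 230.0 CPM. In the libraries labelled SC of immediate repair at day 5, Cdh2 was 0 CPM in replicate 4, where the next lowest was 10.2 CPM. The other 6 were in MAC, at no more than 2.02 CPM. Ncam1 was 2.02 CPM and Chl1 1.1 CPM in the same library, replicate 7 of immediate repair at day 14, with the next highest at 0.312 and 0.127 CPM. After delay at day 14, Ncam1 was 0.928 CPM in replicate 3, Cdh2 1.43 CPM in replicate 4 and Cadm2 0.0928 CPM in replicate 1. Cadm2 was 0.0559 CPM in replicate 7 of immediate repair at day 5. That value is 1 count among libraries at 0, so a single count set it apart. For Cdh2 in delayed replicate 4 and Cadm2 in delayed replicate 1 at day 14, the other libraries were at 0 as well.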

How the results depend on the processing

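In the stump, 7 to 8 members were called lower with each library left out, and all 8 with other tools, scalings and filters, apart from the block (7). Analysed alone, males gave 4 members lower (1298 genes called) and females 4 (594 genes); with fewer samples fewer genes pass, and each of the 8 stayed below 0 in both. Cadm2 turned positive in females (0.12) and without muscle-rich libraries (0.10), and ran from -0.39 to 0.10 with a library left out.

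Counts of all genes called moved as follows. MAC at day 5 (3 genes) gave 17 with DESeq2, 8 with sex, 12 with the replicate block, 6 with all groups in 1 fit and 1 to 4 with a library left out. The libraries labelled SC gave, between repair groups, 14 with DESeq2, 1 with sex, 2 with all groups and 0 to 1 with a library left out at day 5, and 3 with DESeq2 at day 14. From day 5 to day 14, immediate repair (382) gave 950 with DESeq2, 612 with limma-voom, 197 with the block and 221 to 617 with a library left out, and DESeq2 called 1 member higher. Delayed repair (806) gave 1514 with DESeq2, 241 with the block and 379 to 1175 with a library left out; members called higher (5) were 3 with no filter, 0 with the block and 0 to 5 with a library left out. MAC days gave 1484 with library size scaling after immediate repair (964), and 891 with DESeq2 and 1020 with limma-voom after delay (547). The interactions gave 9 with DESeq2 in SC, and 9 with DESeq2, 4 with limma-voom and 0 with library size scaling in MAC (2). SC against MAC at day 5 called 8 members higher with filterByExpr and 8 with no filter (5). The cause was not tested.

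Members not called changed sign as follows. Between repair groups at day 14 in libraries labelled SC, limma-voom gave -0.00036 for Cadm4 and -0.54 for Cdh2, and the block -0.42 for Cdh2. Left-out libraries gave -0.15 to 0.12 for Cadm1, -0.014 to 0.98 for Cadm2, -0.31 to 0.25 for Cdh2 and -0.14 to 0.63 for L1cam. Between days after immediate repair, Chl1 was 0.074 with library size scaling, 0.064 with limma-voom and 0.22 with the block, L1cam 0.22 with library size scaling and Nrcam 0.15 with limma-voom. Left-out libraries gave -0.34 to 0.40 for Chl1 and -0.49 to 0.27 for L1cam, and after delay -0.43 to 1.07 for Nrcam. In MAC between days, Cadm1 was 0.11 with library size scaling and -0.33 to 0.092 with a library left out, and Nrcam -0.025 to 0.80. The SC interaction of Cadm2 was -0.40 with the block. Same-numbered samples of 2 groups are different animals. Their deviations correlated above 0.1 in 1 of 7 pairs in the stump, at most 4 in SC, and 7 of 8 and 6 of 7 in MAC at days 5 and 14. Since in no comparison did every pair exceed 0.1, the numbers were not used as pairs, although most MAC pairs of 1 day did. In SC several members were at 0 in single libraries and had wide intervals, and in MAC 7 members were below the filter in every comparison of repair or day.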
